A study of Mus musculus with 28 samples.

Results

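The comparison described here sets the midbrain of tumour-injected mice 192 h after injection against the same measurement 18 h after injection. For each gene it takes the log2 ratio of tumour over PBS in every biological replicate at 192 h and asks how far it lies from the ratio at 18 h. Genes entered with a value in at least 3 replicates at each time, after the dimmest 33.3% of probes were left out. This gave 5193 probes and 5073 genes, out of 8729 named genes on the arrays. Without the filter on dim probes 6936 genes had enough replicates. The values come from 17 of the 28 arrays of the series, 10 at 18 h and 7 at 192 h, covering 9 biological replicates.

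The animals were male BALB/c mice, 8 weeks old at injection, with no genetic change given. Tumour-injected mice received 1000000 CT-26.WT cells, a colon carcinoma line of BALB/c origin, under the skin in 300 µl of PBS, and their controls received 300 µl of PBS alone and were killed at the same time. Each array held RNA of both kinds of mice, 1 labelled with Cy3 and the other with Cy5, so PBS injection and handling are shared by both sides of each ratio. At 18 h there were 2 replicates of polyA RNA (replicates 1 and 2) and 3 of total RNA (replicates 3, 4 and 5), and at 192 h there were 2 of each (replicates 1 and 2 polyA, replicates 3 and 4 total RNA). Every total RNA replicate was hybridised in both dye orientations, while replicate 1 at each time had tumour RNA in Cy5 only and replicate 2 in Cy3 only. Whether a replicate was 1 mouse or a pool is not given, so the p-values measure the spread between these replicates.

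The midbrain holds the dopamine neurons of the substantia nigra and the ventral tegmental area, part of the serotonin neurons of the raphe, and relays for visceral and pain signals. A tumour outside the brain can reach it through circulating cytokines and glucocorticoids, through the endothelium of the blood-brain barrier and through visceral nerves. Early responses to such signals are known for immediate early, acute phase and glucocorticoid-induced genes, and longer illness is known for changes of feeding peptides, microglia and energy metabolism.

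The channel columns of the scanner files do not name the dyes. The first channel was read as Cy3 and the second as Cy5, as in the labels, and the authors' processed values have the sign that this reading gives on all 17 arrays, so the direction tumour over PBS is likely but rests on that match. Between 18.6% and 88.0% of the spots gave a signal in both channels, with a median of 57.5% over the 17 arrays. Of the genes that mark the tissue, the homeobox genes Pitx3 and Lmx1b gave a signal on all 17 arrays, Th, the rate-limiting enzyme of dopamine synthesis, on 15, and En2 and En1 on 13 and 12. Ddc and Nr4a2 gave a signal on 11 and 12 arrays and were not tested, since they did not pass the filters on replicates or brightness. Neurod6, a forebrain marker, gave a signal on 16 arrays, and the defining markers of astrocytes (Gfap), myelin (Mbp) and blood (Hba-a1) were not analysed here. A fall in the ratio of a marker gene cannot be told apart between fewer cells of a type and less RNA per cell.

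No gene differed between 192 h and 18 h by the test across all probes. In limma with Benjamini-Hochberg adjustment 0 of 5193 probes passed an adjusted p of 0.05 (0%), and the lowest adjusted p was 0.996. An unadjusted p under 0.05 was reached by 149 probes (2.87%), of which 72 were higher (1.39%) and 77 were lower (1.48%) at 192 h. The quartiles of all differences lay at -0.12 and 0.12 on the log2 scale, and 35 probes differed by more than 1. The median SE of a difference was 0.17, which gives a median 95% confidence interval of 0.39 on either side.

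These intervals set what could have been seen. Simulated data had the same missing values and, for each probe, the spread as limma moderates it. In them a difference of 1 on the log2 scale was called for 87.3% of 200 changed probes among 5193, and a difference of 0.5 for 0.9%. Differences of about 0.5 in single genes were therefore not detectable with 5 replicates against 4. The simulated noise was normal and independent, with no dye effect. Moderation draws each probe's spread towards a value common to all probes, so the simulated spreads were more alike than those measured per probe. The 87.3% therefore holds for that setting only. In the data 35 probes differed by more than 1, and none was called.

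The repeat on total RNA alone, 3 replicates at 18 h against 2 at 192 h, gave the same count. None of 5277 probes passed an adjusted p of 0.05 (0%; lowest adjusted p 0.993), and 140 had an unadjusted p under 0.05 (2.65%). Of these, 44 probes were also among the 149 of all replicates. The 32 probes called when 192 h replicate 3 was left out rest on replicate 4 as the only 192 h sample, assumed to vary like the 18 h samples, and 0 were called when replicate 4 was left out instead.

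The differences seen in 1 dye orientation were not those seen in the other. Across 4801 probes, the difference 192 h minus 18 h on arrays with tumour RNA in Cy5 had a Pearson r of -0.06 (Spearman rho -0.08) with that on arrays with tumour RNA in Cy3. The 2 orientations of 1 replicate, turned to tumour over PBS, correlated at -0.48, -0.13 and -0.67 in 18 h replicates 3, 4 and 5 and at -0.17 and -0.59 in 192 h replicates 3 and 4. Probes share arrays, dyes and brightness, so these are descriptions across probes. PolyA and total RNA replicates were also on different array designs, so RNA kind and design cannot be told apart wherever the 2 kinds are compared here. The difference in total RNA replicates had an r of 0.11 with that in polyA replicates over 3036 probes. The mean ratio at 18 h and the mean ratio at 192 h correlated at -0.13 over 5193 probes.

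**Figure D1:**
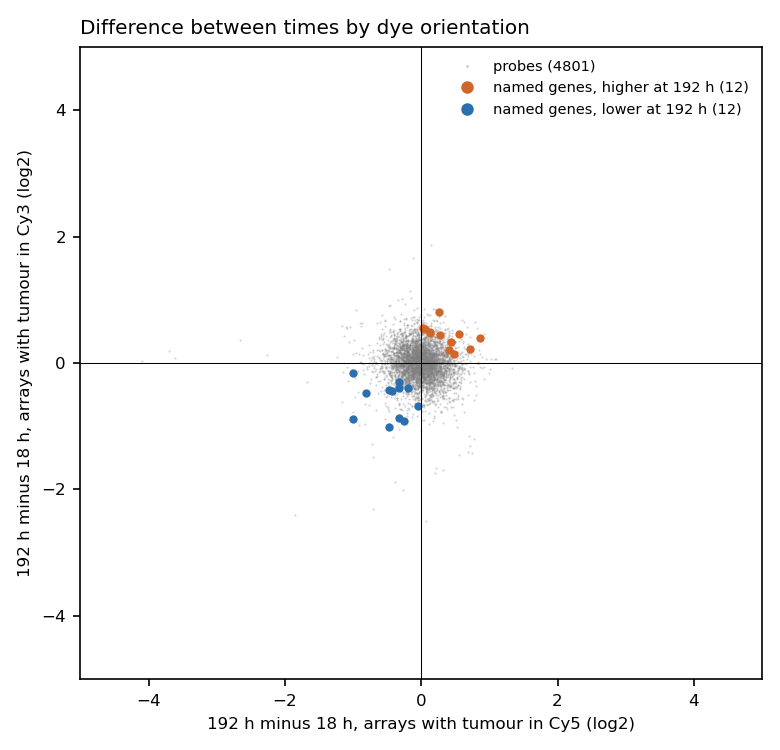
Difference of the log2 ratio tumour over PBS, 192 h minus 18 h, on arrays with tumour RNA in Cy5 (horizontal axis, log2) against arrays with tumour RNA in Cy3 (vertical axis, log2); grey points are 4801 probes, orange and blue points the 24 named genes. The cloud is round (Pearson r -0.06), and the 24 named genes lie in the 2 quadrants of equal sign, which their choice by p over both orientations and by sign in total RNA favours.

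The overall size of the ratios was compared as 1 value per replicate. The polyA replicates hold 1 dye orientation and the total RNA replicates average both, so the 9 values are not alike in kind. The permutation test given below does not take this into account. Over 2451 probes with a value in all 9 replicates, the median absolute log2 ratio at 18 h was 0.191, 0.145, 0.204, 0.163 and 0.130 in replicates 1 to 5. At 192 h it was 0.153, 0.180, 0.0867 and 0.117 in replicates 1 to 4. The 2 groups overlap, and the 2 lowest values are those of the total RNA replicates at 192 h. The means were 0.167 ± 0.031 (SD, n = 5) and 0.134 ± 0.041 (SD, n = 4), a difference of -0.03 with a two-sided exact permutation p of 0.206, where 126 splits allow a smallest p of 0.0159. Within total RNA the difference was -0.06 and within polyA RNA -0.01. The result depends on the background: with normexp the difference was -0.078 (exact permutation p 0.0476), and with the background added back it was 0.013 (exact permutation p 0.651).

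The genes named below are the 12 higher and the 12 lower at 192 h with the smallest p, among probes measured in both orientations in every total RNA replicate with a value, and whose difference in total RNA alone has the sign of the whole fit. They were ranked by this very test, none has an adjusted p below 0.996, and their values are given as a description. The choice of genes favours an equal sign on both sets of arrays, so that all 24 have one is no support for them. In 6 of the 24 the replicates of the 2 times do not overlap, against 103 of all 5193 probes (1.98%), which the choice favours too.

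The 12 genes with a higher ratio at 192 h all had a mean ratio below 0 at 18 h. At 192 h the mean was above 0 in all but Nkx6-3. All but Plod2, Clk4 and Slc22a8 had at least 1 late replicate below 0. Plod2, a lysyl hydroxylase that prepares collagen for cross-linking, had ratios of -0.48, -0.22 and -0.32 in 18 h replicates 1, 4 and 5. At 192 h its ratios were 0.14, 0.12, 0.30 and 0.04 in replicates 1 to 4. All 18 h values lie below all 192 h values, and the sign changes between the times. The difference was 0.47 (SE 0.16, 95% confidence interval 0.12 to 0.83), with 0.26 on arrays with tumour in Cy5 and 0.81 with tumour in Cy3.

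Klf12, a transcriptional repressor of the Krüppel-like family, gave -0.34, -0.39, -0.25 and -0.22 in 18 h replicates 1, 2, 4 and 5 and -0.08, 0.07, -0.02 and 0.09 at 192 h. The 18 h ratios were all below 0, the 192 h ratios lay on both sides of 0, and the groups do not overlap. The difference was 0.31 (SE 0.13), with 0.05 on Cy5 arrays and 0.55 on Cy3 arrays, and near 0 in the authors' values (-0.00259). Slc22a8, which encodes the organic anion transporter OAT3 of the choroid plexus and brain capillaries, gave -0.19, -0.21, -0.78 and 0.07 in 18 h replicates 2 to 5. Its 4 ratios at 192 h were close together, 0.12, 0.17, 0.15 and 0.18, and all lay above those of 18 h. The difference was 0.44 (SE 0.19), and 18 h replicate 4 lies farthest from the rest.

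Cacna1c, the pore-forming subunit of the L-type calcium channel Cav1.2, had the smallest p of the genes that were higher. Its ratios were -0.25, -0.40, -0.26, -0.28 and -0.07 at 18 h, against 0.41, 0.42, -0.13 and 0.15 at 192 h. All 5 early values are below 0, the 2 polyA replicates at 192 h are the highest, and 192 h replicate 3 lies within the 18 h range. The difference was 0.47 (SE 0.15, 95% confidence interval 0.14 to 0.80), with 0.74 in polyA and 0.22 in total RNA. Ormdl3, an inhibitor of the first step of sphingolipid synthesis, also had its 2 highest late values in the polyA replicates. It gave -0.18, -0.35, -0.01, -0.15 and -0.22 at 18 h, against 0.48, 0.24, -0.02 and 0.10 at 192 h. Its difference was 0.38 (SE 0.13), again larger in polyA (0.62) than in total RNA (0.17).

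Nkx6-3, a homeobox transcription factor, was below 0 in all 5 replicates at 18 h, with -0.51, -0.63, -0.42, -0.35 and -0.19. At 192 h it gave 0.06, -0.11, 0.13 and -0.32, so only replicate 4 lay within the early range. The difference was 0.37 (SE 0.14), but -0.013 in the authors' values. Pqbp1, a splicing-related polyglutamine-binding protein, was also below 0 in all 5 early replicates, from -0.60 to -0.06, and gave -0.13, 0.09 and 0.25 in 192 h replicates 2 to 4. Its difference of 0.37 (SE 0.15) turned to -0.64 with array 272 added. The splicing factor Cdc40 and the kinase Clk4, which phosphorylates splicing factors, had differences of 0.42 (SE 0.15) and 0.37 (SE 0.16), and both overlap between the times.

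The remaining genes of this group overlap as well. The difference was 0.57 (SE 0.20) for Ttc32, 0.56 (SE 0.20) for Them7 and 0.33 (SE 0.15) for C1qtnf4, a secreted protein of the C1q and TNF-related family. For Ttc32 the ratios at 192 h ran from -0.39 to 0.64, wider than the difference itself, which turned to -0.14 when ratios were centred on the median in place of loess. For C1qtnf4 the early mean of -0.17 holds 1 value of -0.61, in replicate 2, and the other 4 lie between -0.16 and 0.03.

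Among the 12 genes with a lower ratio at 192 h, the early ratios were mostly above 0. Ndufb11, a subunit of complex I of the respiratory chain, gave 0.41, 0.09, 0.21, 0.12 and 0.22 at 18 h, against 0.01, -0.22, -0.09 and -0.10 at 192 h. All 5 early values lie above all 4 late values. The difference was -0.31 (SE 0.11, 95% confidence interval -0.55 to -0.07), and it was of like size in total RNA (-0.28) and polyA RNA (-0.36). On Cy5 arrays it was -0.20 and on Cy3 arrays -0.40.

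Mob2, an adaptor of the NDR kinases, gave 0.17, 0.51 and 0.20 in 18 h replicates 2, 4 and 5. At 192 h its 4 ratios were -0.07, -0.19, -0.12 and -0.09, all below 0 and below the early values. The difference was -0.44 (SE 0.15), with -0.47 on Cy5 arrays and -0.43 on Cy3 arrays. Cish, a cytokine-induced feedback inhibitor of STAT5 signalling, gave 0.31, 0.34 and 0.00 in 18 h replicates 2, 4 and 5 and -0.09, -0.68, -0.29 and -0.16 at 192 h. The groups do not overlap, but the nearest values of the 2 times are 0.00 and -0.09. Its difference was -0.58 (SE 0.18), with -0.997 on Cy5 arrays and -0.16 on Cy3 arrays.

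Ppp2r2b, a brain regulatory subunit of protein phosphatase 2A, had the smallest p of all probes. Its ratios were 0.09, 1.33, 0.11 and 0.58 in 18 h replicates 1, 2, 4 and 5 and -0.93, 0.45, -0.02 and -0.14 at 192 h. The difference was -0.69 (SE 0.17), and the times overlap through 192 h replicate 2. A second probe of Ppp2r2b gave a difference of 0.10, so the 2 probes of this gene disagree in sign.

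Abcg2, an efflux transporter of brain capillaries, gave -0.08, 1.30, 0.30 and 0.86 at 18 h (replicates 1, 2, 4 and 5), against -1.79, 1.04, 0.20 and -0.29 at 192 h. The late replicates spread over almost 3 log2 units, from replicate 1, with tumour in Cy5, to replicate 2, with tumour in Cy3. In Ppp2r2b, Abcg2, 4930529I22Rik and Fgf11, an intracellular member of the FGF family, the 2 polyA replicates at 192 h are the lowest and the highest late value, and they are of opposite dye orientation. At 18 h, too, replicate 2, with tumour in Cy3, was above replicate 1, with tumour in Cy5, in each of these genes. The ratios were 1.33 against 0.09 for Ppp2r2b and 1.30 against -0.08 for Abcg2. They were 1.14 against -0.05 for 4930529I22Rik and 0.93 against 0.06 for Fgf11. The dye term of the fit takes up a shift of this kind as far as it is common to both times. The differences were -0.80 (SE 0.25) for Abcg2, -0.68 (SE 0.24) for 4930529I22Rik and -0.41 (SE 0.14) for Fgf11.

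The gene 1810037I17Rik gave 0.38, 1.10, 0.97, 0.03 and 0.97 at 18 h, against -0.20, 0.27, -0.02 and -0.84 at 192 h. All 5 early ratios are above 0 and replicate 4 is the lowest of them, inside the late range. The difference was -0.88 (SE 0.25), the largest of the 24. Rnf26, a ubiquitin ligase of the endoplasmic reticulum, gave 0.42, 0.07, 0.31, 0.44 and 0.01 early and 0.03, -0.71, -0.23 and 0.01 late, with a difference of -0.47 (SE 0.14). Gpr137b, a lysosomal membrane protein, differed by -0.56 (SE 0.20), Fv1, a restriction factor against murine leukaemia virus, by -0.43 (SE 0.15), and Strn4, a scaffold of the striatin family, by -0.35 (SE 0.14). These 4 also overlap between the times.

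**Figure D2:**
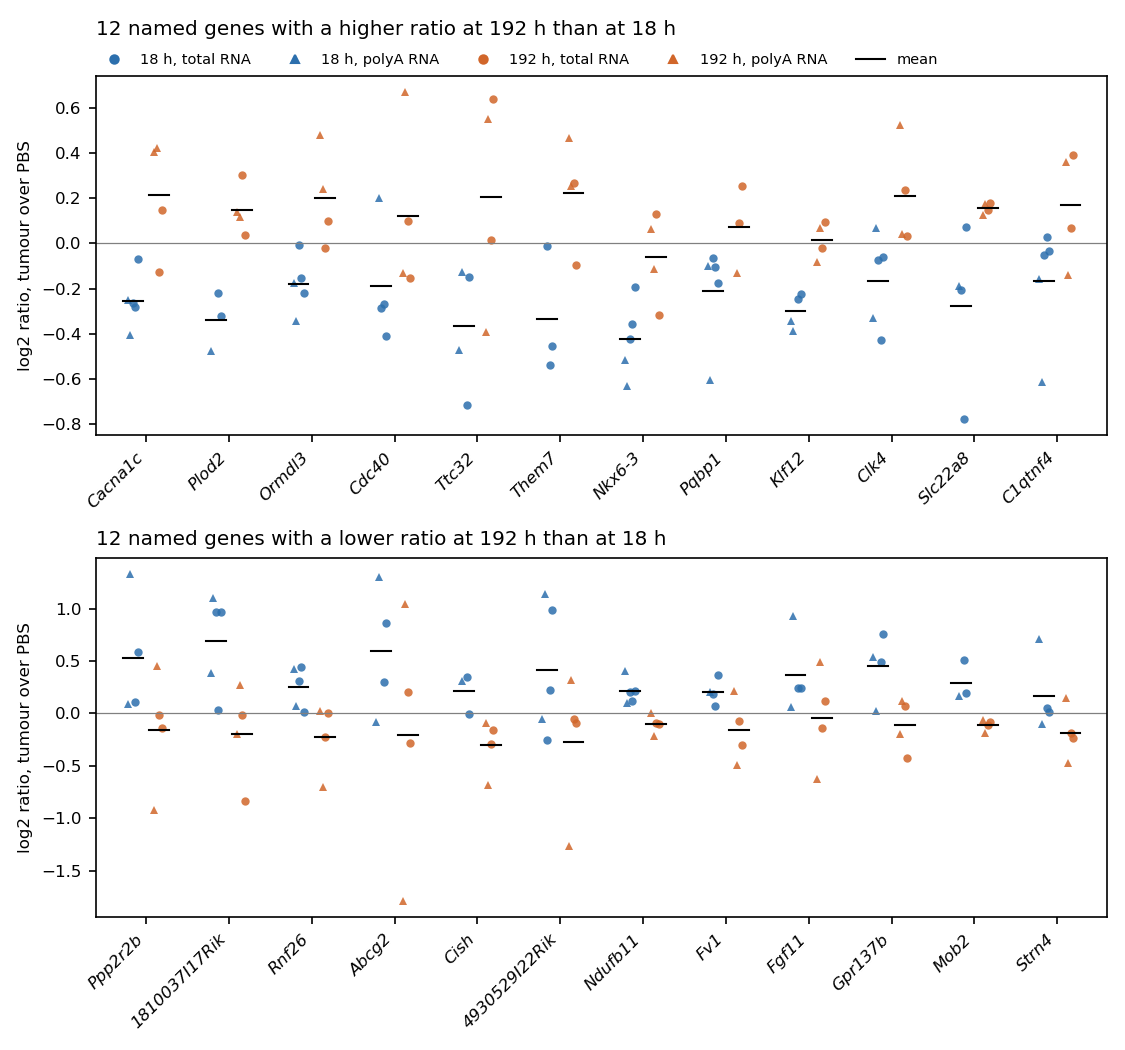
Log2 ratio of tumour over PBS in each biological replicate for the 12 named genes higher (upper panel) and the 12 lower (lower panel) at 192 h; blue marks 18 h, orange 192 h, circles total RNA, triangles polyA RNA, and black bars the mean of a time. The replicates of the 2 times are separate in Plod2, Klf12, Slc22a8, Cish, Ndufb11 and Mob2, and in Abcg2 the late replicates run from -1.79 to 1.04.

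The gene groups were read from 36 lists with at least 5 measured genes, each described by its count and its median beside all genes. Over all 5073 genes the median difference was 0.00, 2560 genes (50.5%) were above 0, and 140 genes (2.76%) had an unadjusted p under 0.05. The median kept 1 sign in total RNA, on Cy5 arrays and on Cy3 arrays in 15 of the 36 lists. Over 18 other settings and total RNA it turned in none for 3 of them: glycolysis, synaptic vesicle release, and lymphocytes and granulocytes. Leaving out single replicates is not among these settings, and without 192 h replicate 1 the median of lymphocytes and granulocytes was -0.01. No gene of any list passed an adjusted p of 0.05 over all genes, for which the lowest value among the list genes named below was 0.997. In 1 of the 36 lists, endothelium and barrier, 3 genes had an unadjusted p under 0.05, in ion channels 2, and in the others at most 1. Unlike the 24 named genes, list genes did not need both orientations in every total RNA replicate with a value. Cd52, Kcnma1, Eef1e1, Camk4, Abcb1a and S100a8 are not among the 24, though their p was below that of some named genes of the same direction.

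Of 43 genes of oxidative phosphorylation, the subunits of the respiratory chain and the ATP synthase, 13 were above 0 and 30 below, with a median of -0.09, and only Ndufb11 had an unadjusted p under 0.05. The mean ratio of the list was 0.12, 0.01, 0.00, 0.00 and 0.06 in the 18 h replicates and 0.05, -0.10, -0.07 and 0.00 at 192 h, which overlap. The direction was not the same in the 2 dye orientations. On Cy5 arrays 24 of 43 genes were above 0, with a median of 0.04, and on Cy3 arrays 10 of 41, with a median of -0.11. In total RNA 14 of 42 were above 0, with a median of -0.05. The members ranged from Ndufb11 to Atp5j2, a subunit of the ATP synthase, with 0.21 (SE 0.14).

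Of 14 genes of the TCA cycle and pyruvate oxidation, 5 were above 0, with a median of -0.09, from Idh3a with -0.34 (SE 0.18) to Idh2 with 0.24 (SE 0.19), both isocitrate dehydrogenases. In total RNA alone 8 of 13 were above 0, with a median of 0.02. Of 10 glycolysis genes 3 were above 0, with a median of -0.05, but 5 of 10 on Cy3 arrays, and the kinase Pgk1 was the lowest with -0.20 (SE 0.17). Pfkfb3, which makes the activator of phosphofructokinase, was the highest with 0.07 (SE 0.12). The antioxidant list had 5 of 18 genes above 0, with a median of -0.05, but 11 of 18 on Cy5 arrays and 6 of 18 on Cy3 arrays. The thioredoxin reductase Txnrd1 had 0.38 (SE 0.30) and the glutathione transferase Gstm1 -0.22 (SE 0.15).

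Among the lists of protein synthesis and degradation, the cytosolic ribosome had 15 of 32 genes above 0, the mitochondrial ribosome 22 of 46, the proteasome 9 of 18 and translation factors 7 of 16, with medians between -0.02 and 0.00. By dye orientation, the median was 0.09 on Cy5 and -0.07 on Cy3 arrays for the cytosolic ribosome and 0.05 and -0.04 for the mitochondrial ribosome. For the proteasome it was 0.03 and -0.10, with 12 of 18 and 5 of 17 genes above 0. Eef1e1, a scaffold of the aminoacyl-tRNA synthetase complex, gave 0.48, -0.17, 0.54, 0.23 and 0.46 at 18 h, against -0.07, -0.08, -0.05 and -0.07 at 192 h. Its late values lie close together and its early values are above them except in replicate 2. The difference was -0.37 (SE 0.15), with -0.34 on Cy5 arrays and -0.40 on Cy3 arrays, but 0.045 in the authors' values.

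The ribosomal protein gene Rpl11 had a difference of -0.51 (SE 0.23), of which 18 h replicate 2 alone gave a ratio of 1.60. In total RNA it was -0.10. Rps29 was the highest of its list with 0.21 (SE 0.14). In the mitochondrial ribosome the ends were Mrpl2 with -0.33 (SE 0.16) and Mrpl19 with 0.39 (SE 0.17), and in the proteasome the ends were Psmd4 with -0.21 (SE 0.13) and Psme3 with 0.44 (SE 0.31). In ubiquitin conjugation 5 of 13 genes were above 0, with a median of -0.08 (0.05 on Cy5 and -0.12 on Cy3 arrays), from Ube2e1 with -0.44 (SE 0.73) to Ube2v2 with 0.15 (SE 0.15). The initiation factor subunit Eif2b1 had 0.53 (SE 0.25).

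Stress and glucocorticoid genes did not move as a block. Of 13 genes of the glucocorticoid list 11 were above 0, with a median of 0.08, but 7 of 13 in total RNA, 8 of 13 on Cy5 arrays and 7 of 13 on Cy3 arrays, and 6 of 13 with median centring. The list mean in the replicates was -0.15, -0.04, -0.01, 0.04 and 0.03 at 18 h, against 0.03, 0.02, 0.05 and 0.08 at 192 h, and the groups overlap. Cebpb, a transcription factor induced by inflammation and glucocorticoids, was the highest with 0.46 (SE 0.28), its relative Cebpd had 0.15 (SE 0.15), and the repressor Bcl6 was the lowest with -0.40 (SE 0.23).

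Hsd11b1, the enzyme that regenerates active glucocorticoid inside cells, had the only unadjusted p under 0.05 in that list. It gave 0.12, 0.03, 0.08, 0.14 and 0.20 at 18 h, all above 0, and 0.03, -0.52, -0.04 and -0.20 at 192 h. The 2 times meet at 0.03, in 18 h replicate 2 and 192 h replicate 1. The difference was -0.30 (SE 0.12), with -0.24 on Cy5 arrays, -0.33 on Cy3 arrays and -0.26 in total RNA.

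Immediate early genes, which neurons switch on within minutes of activity, had 8 of 13 above 0 with a median of 0.04. Fos had 0.31 (SE 0.46), with early ratios from -1.28 to 1.56, and 0.59 on Cy5 arrays against -0.65 on Cy3 arrays. Egr3 was the lowest with -0.26 (SE 0.19). The unfolded protein response had 9 of 20 above 0, heat shock and chaperones 11 of 22, apoptosis 7 of 12 and the cell cycle 4 of 10, all with medians within 0.04 of 0. By dye orientation, the median was 0.23 on Cy5 and -0.06 on Cy3 arrays for apoptosis and -0.18 and 0.16 for the cell cycle. For the unfolded protein response it was 0.04 and -0.01, and for heat shock and chaperones 0.06 and -0.04. Among the ends of these lists were the chaperone cofactors St13 with 0.45 (SE 0.21) and Stip1 with -0.25 (SE 0.20). The pro-apoptotic gene Pmaip1 had the largest difference of these lists, 1.08 (SE 0.52), of which 18 h replicate 5 alone gave -2.02.

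Few immune genes passed the filters on replicates and brightness, and those that did gave no common direction. Cytokine and NF-kB genes had 10 of 24 above 0 with a median of -0.02, and interferon response genes 3 of 8 with a median of -0.04. Acute phase genes had 4 of 5 above 0 with a median of 0.11, in total RNA 2 of 5 with a median of -0.05. Without the filter on dim probes the cytokine list had 16 of 35 above 0, with a median of -0.02. The interferon list then had 8 of 15, with a median of 0.03, so its direction turned. S100a8, a calcium-binding protein of neutrophils, gave 0.15, -0.39 and -0.37 in 18 h replicates 2, 4 and 5 and 0.09, 0.91, -0.22 and -0.01 at 192 h. Its difference was 0.55 (SE 0.22), and in total RNA 0.27. The list of lymphocyte and granulocyte genes, to which it also belongs, had 8 of 10 above 0, with Gzmb the lowest at -0.08 (SE 0.27). Without 192 h replicate 1 that list had 3 of 7 above 0, with a median of -0.01.

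Irf9, the DNA-binding part of the factor that carries the type I interferon signal, gave 0.40, -0.28, 0.07 and 0.57 at 18 h (replicates 1, 2, 4 and 5). At 192 h it gave 0.05, -0.34, -0.44 and -2.02, and replicate 4 is far below the others. Its difference was -0.88 (SE 0.39), with -1.17 on Cy5 arrays and no value on Cy3 arrays. The interferon-induced genes Isg15 and Ifi27 had -0.17 (SE 0.16) and 0.22 (SE 0.23). The signalling kinase gene Irak1 had -0.89 (SE 0.59), with 3.24 in 18 h replicate 2 and between 0.29 and 0.40 in the other early replicates.

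In microglia 4 of 9 genes were above 0, with a median of -0.04. The lowest was Cd52, a surface glycoprotein of leukocytes, with 0.39, 1.60, 0.21 and 1.62 in 18 h replicates 2 to 5. At 192 h it gave -2.81, -0.45 and -3.50 in replicates 1, 3 and 4. All early ratios are above 0 and all late ratios below, and the difference was -3.21 (SE 0.83, adjusted p 0.997 by limma). No value is left for it when the orientations are taken separately, since too few arrays of 1 orientation measured it. The other microglial genes were far smaller, with C1qb, a complement subunit, at 0.02 (SE 0.18), and Gpr34, a microglial receptor, the highest at 0.10 (SE 0.17).

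Large negative values in single late replicates recur in several list genes with large negative differences. Besides Cd52, 192 h replicate 4 gave -2.93 for Tjp1, -2.45 for Pllp, -2.46 for Gabrg1 and -1.84 for Kcnma1. In 192 h replicate 1, Tjp1 gave -1.19 and Kcnma1 -1.11. Without 192 h replicate 4 the difference was -0.44 for Irf9, -0.77 for Kcnma1 and -0.17 for Gabrg1. In other list genes with large differences an early replicate lay farthest out. For Pmaip1 18 h replicate 5 gave -2.02, and for Irak1 18 h replicate 2 gave 3.24.

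Among endothelial and barrier genes 8 of 19 were above 0, with a median of -0.01. Abcb1a, the P-glycoprotein efflux pump of brain capillaries, gave -0.23, 0.02, -0.86 and -0.34 at 18 h (replicates 1, 2, 4 and 5), against 0.25, -0.11, 0.35 and 0.09 at 192 h. Its difference was 0.50 (SE 0.20), with 0.60 on Cy5 arrays, 0.69 on Cy3 arrays and 0.82 in total RNA, opposite in sign to that of the other efflux pump, Abcg2. Tjp1, the tight junction protein ZO-1, had -1.50 (SE 0.62), with late ratios from -2.93 to 0.92. On Cy5 arrays it had -2.20, and it had no value on Cy3 arrays or in total RNA alone. Choroid plexus and ependyma had 1 of 5 genes above 0, with a median of -0.24, and 2 of 5 in total RNA. Without the filter on dim probes 5 of 10 were above 0, with a median of 0.03, so the direction turned. Sostdc1 was the lowest there with -0.38 (SE 0.18) and the cilia gene Ccdc39 the highest with 0.08 (SE 0.17).

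Genes of dopamine neurons had 9 of 14 above 0, with a median of 0.13, in total RNA alone 5 of 14, with a median of -0.08. The list mean was below 0 in 4 of 5 early replicates, from -0.21 to 0.04, and ran from -0.06 to 0.07 at 192 h. Th gave 0.12, -0.21, 0.31, 0.10 and 0.11 at 18 h, against 0.64, 0.09, -0.14 and 0.44 at 192 h, which overlap, and differed by 0.17 (SE 0.16). Sncg, a synuclein of monoamine neurons, was the highest with 0.52 (SE 0.29), of which 18 h replicate 2 alone gave -1.69, and in total RNA it was -0.14. Of the transcription factors, Pitx3 had -0.01 (SE 0.11), Lmx1b 0.19 (SE 0.24) and En1, the lowest, -0.20 (SE 0.20). Drd2, the dopamine autoreceptor, had -0.16 (SE 0.15).

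Serotonin and noradrenaline genes had 2 of 6 above 0, from the noradrenaline transporter Slc6a2 with -0.40 (SE 0.24) to Gata3 with 0.20 (SE 0.13), and 6 of 10 without the filter on dim probes. Glutamatergic genes had 11 of 17 above 0, with a median of 0.15, and 9 of 15 in total RNA, with a median of 0.05, but 8 of 17 in the authors' values. Camk4, a calmodulin-dependent kinase of the nucleus, gave a mean of -0.12 at 18 h, against 0.25 at 192 h and a difference of 0.37 (SE 0.15). The NMDA receptor subunit Grin2c had 0.38 (SE 0.28) and the AMPA receptor subunit Gria4 -0.28 (SE 0.14). GABAergic genes had 8 of 16 above 0, with the receptor subunits Gabrb2 and Gabrg1 at the ends. For Gabrb2 the fit gave 0.56 (SE 0.31), while the plain means were 0.32 at 18 h and 0.11 at 192 h, and without the dye term the difference was -0.21. For Gabrg1 it was -0.83 (SE 0.71).

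Ion channels had 32 of 46 above 0 with a median of 0.05, but 22 of 42 in total RNA, 24 of 46 on Cy5 arrays and 23 of 42 on Cy3 arrays. Kcnma1, the large-conductance calcium-activated potassium channel, gave 0.42, 0.91, 0.46, 0.31 and 0.71 at 18 h, all above 0. At 192 h it gave -1.11, 0.22, 0.26 and -1.84, so 2 late replicates lie close below the early range and 2 far below it, with no overlap. The difference was -1.18 (SE 0.35), with -0.30 on Cy5 arrays and -1.08 on Cy3 arrays, opposite in sign to that of Cacna1c.

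Genes of synaptic vesicle release had 12 of 31 above 0, with a median of -0.07. Sv2a, a glycoprotein of synaptic vesicles, gave 0.00, 0.56, 0.47, 0.18 and 1.76 at 18 h, against -0.12, 0.05, 0.05 and -0.74 at 192 h. Its difference was -0.78 (SE 0.32), and the syntaxin gene Stx3 was at the other end with 0.32 (SE 0.17).

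Feeding and neuropeptide genes had 11 of 20 above 0 with a median of 0.03, and 7 of 20 in total RNA. Oxt, which encodes oxytocin, was the highest. It gave -0.58, -0.15, 0.09, -0.43 and -0.88 at 18 h, against 0.03, -0.22, 0.19 and -0.22 at 192 h, and differed by 0.34 (SE 0.20), with 0.38 and 0.33 in the 2 orientations. The galanin receptor gene Galr1 was the lowest with -0.20 (SE 0.13), and Tac1, the precursor of substance P, had -0.09 (SE 0.12). Of sterol and lipid synthesis genes 7 of 14 were above 0, from Sqle, a squalene epoxidase, with -0.37 (SE 0.19) to Pmvk with 0.07 (SE 0.19).

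Among 8 clock genes 2 were above 0, with a median of -0.09, and in total RNA 4 of 8. Clock, the activator of the loop, gave 0.14, -0.88, -0.28, -0.48 and -0.34 at 18 h, against -0.08, -0.07, -0.03 and 0.18 at 192 h. Its early ratios were below 0 in 4 of 5 replicates and its late ratios near 0. The difference was 0.37 (SE 0.16), with 0.40 and 0.41 in the 2 orientations and 0.44 in total RNA. The repressor Nr1d2 was below 0 in all 5 early replicates, from -0.34 to -0.03, and differed by 0.20 (SE 0.12). Nfil3 was the lowest with -0.26 (SE 0.28), but 0.087 in total RNA.

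Astrocyte genes had 6 of 14 above 0, with a median of -0.05, from Atp1b2 with -0.25 (SE 0.18) to Ntsr2 with 0.19 (SE 0.15), and S100b had -0.14 (SE 0.13). Oligodendrocyte and myelin genes had 9 of 20 above 0 with a median of -0.07. On Cy5 arrays 11 of 19 were above 0, with a median of 0.05, and on Cy3 arrays 5 of 16, with a median of -0.09. With both orientations required 9 of 14 were above 0, with a median of 0.06, so the direction turned. Plekhb1, a myelin-associated membrane protein, had a mean of 0.32 at 18 h, against -0.06 at 192 h and a difference of -0.38 (SE 0.15), with -0.39 and -0.44 in the 2 orientations. Pllp, a proteolipid of myelin, had -0.76 (SE 0.47), but -0.17 without 192 h replicate 4 and 0.047 on Cy5 arrays, and Mal had 0.05 (SE 0.14).

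Markers of tissue next to the midbrain were read from their whole lists. Cerebellar genes had 9 of 13 above 0, with a median of 0.11 (6 of 13 and -0.098 with median centring), and forebrain genes 7 of 10, with a median of 0.07. Over the replicates the cerebellar list mean ran from -0.25 to 0.03 at 18 h and from -0.01 to 0.08 at 192 h, and the forebrain list mean from -0.24 to 0.08 and from -0.08 to 0.13. Nrgn, a postsynaptic protein of forebrain neurons, had 0.34 (SE 0.15), with 0.41 and 0.42 in the 2 orientations and 0.57 in total RNA, and Pcp2, a Purkinje cell gene, 0.37 (SE 0.25). Their part in the other differences was not tested. Olfactory receptor genes, for which no midbrain role is assumed here, had 2 of 10 above 0 with a median of -0.11, but 12 of 23 with a median of 0.02 without the filter on dim probes. Lists of erythrocyte and muscle genes had fewer than 5 measured genes and are not described.

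**Figure D3:**
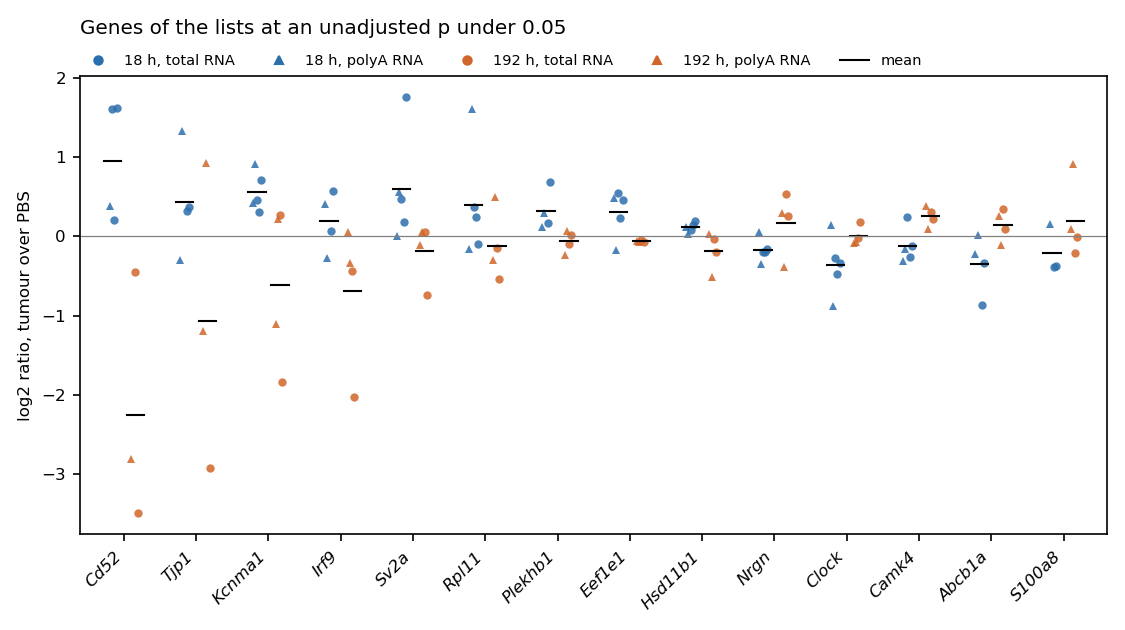
Log2 ratio of tumour over PBS in each biological replicate for the genes of the lists with an unadjusted p under 0.05 that are not among the 24 named genes, ordered by difference; blue marks 18 h, orange 192 h, circles total RNA, triangles polyA RNA, black bars the mean of a time. Cd52, Tjp1, Kcnma1 and Irf9 hold single late ratios between -3.50 and -1.11, while Eef1e1, Hsd11b1, Nrgn, Clock and Camk4 stay within 1 of 0.

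**Figure D4:**
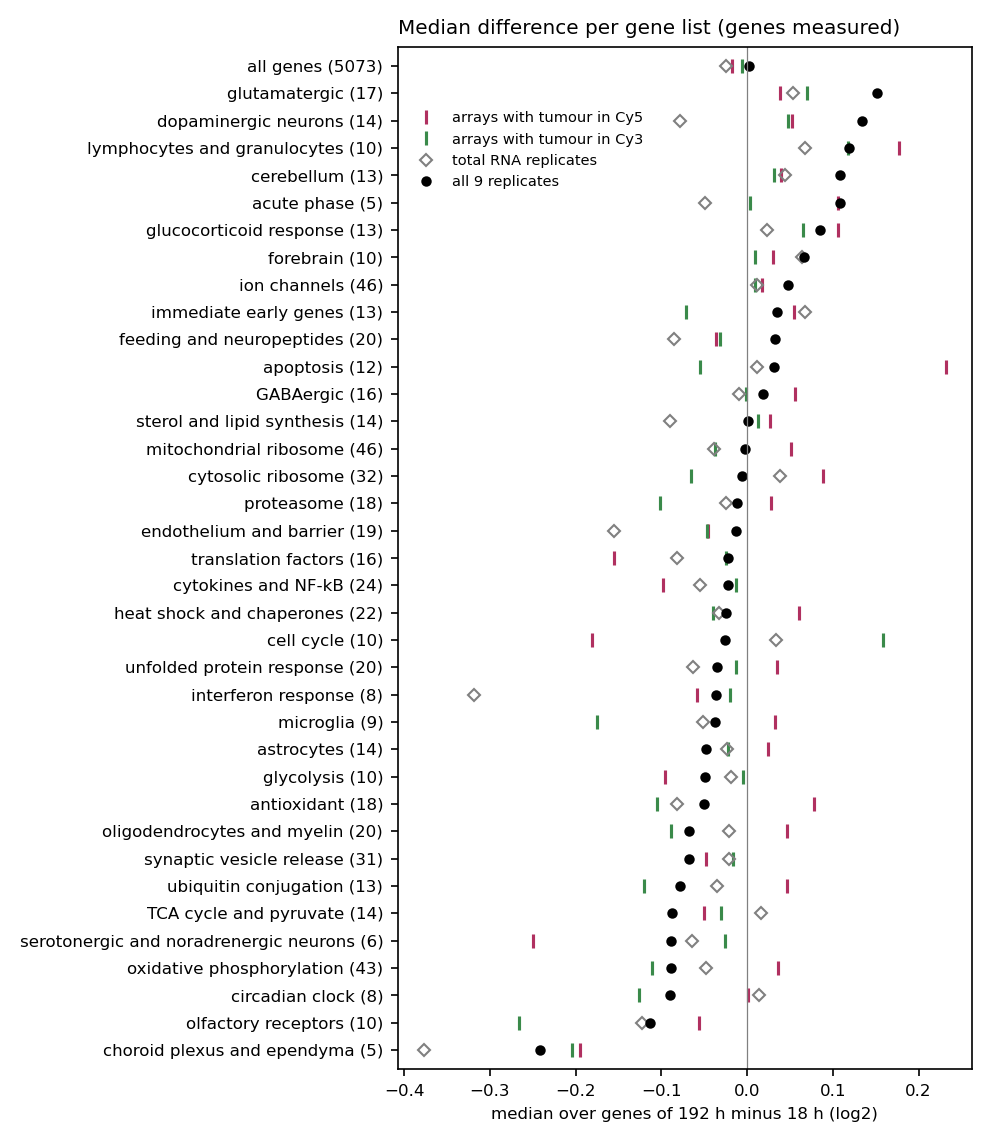
Median over genes of the difference 192 h minus 18 h (log2) for each of 36 gene lists and for all genes, with the number of genes measured in parentheses; black points use all 9 replicates, open diamonds the total RNA replicates, red and green ticks the arrays with tumour in Cy5 and in Cy3. The black points run from -0.24 in choroid plexus and ependyma to 0.15 in glutamatergic genes, and in oxidative phosphorylation the 2 ticks fall on opposite sides of 0 (0.04 and -0.11).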

How the data were processed

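Midbrain RNA of tumour-injected and PBS-injected mice was hybridised to in-house printed 2-colour oligonucleotide arrays, per the labels. The deposited scanner files give spot intensity per channel with the local background subtracted, per the file headers, and 3 scans per array; scanner and software are not given in the sources used here. The authors' deposited value table holds a log ratio whose base and normalization are not stated, named a score here and used as an alternative; its column medians lie between -0.01 and 0.01 and its correlation with the scanner ratios between 0.596 and 0.875 on the 17 arrays used. Its 6 columns of arrays outside the comparison were not used.

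Ratios of the channels were taken on the log2 scale and corrected by loess in each scan (span 0.3, 4 iterations; limma 3.58.1 in R 4.3.3). Means over scans, over spots of a probe and over arrays of a replicate followed, with the sign set so that tumour is over PBS. The dimmest 33.3% of probes were left out. Genes were named by platform accession (4858), gene number (4057) or symbol (85). Limma fitted both times with a dye term, with 6 residual degrees of freedom and 4.53 from its prior, and p-values were adjusted by Benjamini-Hochberg with a threshold of 0.05; total RNA was fitted without a dye term. Values for genes rest on the mean of their probes, those of the 24 named genes on 1 probe. Orientations taken separately are plain differences of means. One 192 h array of another design (number 272) was left out; spot brightness there followed the other designs with a Spearman rho of 0.222, against 0.288 to 0.731 on the 17 arrays. The fit was tested on 10 simulated data sets. The precision is limited by the number of replicates, since arrays carry no counts. The members, lists, naming rules and tests were chosen with earlier results of these data known. Named genes are the 12 of smallest p in each direction with 1 symbol, both orientations in total RNA and 1 sign there, the list genes of smallest p under 0.05, and each list's ends; Th, Pitx3, Lmx1b, Drd2, C1qb, Isg15, Cebpd, Nr1d2, S100b, Mal and Tac1 were added after their values were seen. Alternatives changed the background, normalization, filter, dye and RNA terms, arrays and replicates. Same-numbered replicates of the 2 times correlated at 0.20, 0.33, -0.16 and 0.10 in their deviations from the mean of their time, so the numbers were not taken as pairs.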

Additional observations from a re-analysis of the deposited data

Results flagged for a closer look

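Of 232 groups of 4 or 5 replicate values examined for 1 value far from the rest, 10 were found, against about 11.6 at a rate of 1 in 20. The genes flagged were named for their p or their difference in these data, so that rate need not hold for such groups. In 18 h replicate 2, which is polyA RNA with tumour in Cy3 only, Pqbp1 had a log2 ratio of -0.60 (others -0.17 to -0.06), C1qtnf4 -0.61 (others -0.16 to 0.03), Sncg -1.69 (others -0.11 to 0.33), Gabrb2 1.80 (others -0.24 to -0.08) and Ifi27 -0.69 (others -0.08 to 0.00). In 18 h replicate 1, Galr1 had 0.46 (others -0.02 to 0.07) and the mean of the apoptosis list was -0.28 (others -0.06 to 0.02). In 192 h replicate 4, Rps29 had 0.29 (others -0.07 to -0.02) and the mean of the choroid plexus and ependyma list was 0.22 (others -0.19 to -0.12). Pmvk had 0.52 in 192 h replicate 2 (others -0.26 to -0.14). What set these values apart was not tested.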

How the results depend on the processing

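The count of 0 called probes held under all 27 alternatives; the lowest adjusted p was 0.366 with the replicate block and at least 0.881 otherwise. The count at an unadjusted p under 0.05 (149) was 92 without the dye term, 17 in polyA replicates alone, 139 with the replicate block (57 shared), and 84 to 205 with 1 replicate left out (84, 92 and 92 without 192 h replicates 1, 3 and 4). In total RNA (140) it was 90 with both orientations required, 233 with the replicate block and 83 to 202 with 1 replicate left out, which called 0 to 32 probes (lowest adjusted p 0.000954 without 192 h replicate 3). The size of the ratios differed by 0.013 with the background added back (exact permutation p 0.651), by -0.078 with normexp (exact permutation p 0.0476) and by -0.048 to -0.016 with 1 replicate left out. Signs turned in 4 of 24 named and 33 of 75 list genes, none of them called. The sign turned with the authors' values for Nkx6-3 (-0.013), Klf12 (-0.00259), Txnrd1 (-0.061), Bad (0.042), Ntsr2 (-0.072), Mcm6 (0.066), Vcam1 (-0.15), Rps29 (-0.011), Sncg (-0.087), Rprm (0.00789), Cebpb (-0.032), Gria4 (0.072), Gzmb (0.00275), Gpr34 (-0.00691), Olfr155 (-0.091), Olfr140 (0.24), Psme3 (-0.00338), Pmvk (-0.041) and Eef1e1 (0.045). With Cy5 arrays alone, the sign turned for Gstm1 (0.20), Atp1b2 (0.050), Nfil3 (0.045), Gpr34 (-0.082), Olfr155 (-0.013), Olfr140 (0.43), Pllp (0.047), Pmvk (-0.28) and Idh2 (-0.10). It turned with median centring for Ttc32 (-0.14), Cp (0.33), Ntsr2 (-0.11), Pfkfb3 (-0.15), Gzmb (0.043), Gpr34 (-0.013), Olfr155 (-0.12) and Pmvk (-0.027). With Cy3 arrays alone, the sign turned for Cp (0.00346), Ccdc39 (-0.079), Gabrb2 (-0.27), Gabrg1 (0.22), Fos (-0.65), Gzmb (0.32) and Ube2v2 (-0.013). It turned with array 272 added for Pqbp1 (-0.64), Cp (0.00952), Rps29 (-0.55), Gata3 (-0.22) and Pmvk (-0.28). With the replicate block, the sign turned for Cp (0.046), Mcm6 (0.00375) and Gzmb (0.13). It turned with both orientations required for Txnrd1 (-0.051), Ccdc39 (-0.018) and Fos (-0.026). With a dye term per probe, the sign turned for Mcm6 (0.18) and Gabrg1 (0.067). It turned with polyA replicates alone for Ntsr2 (-0.016) and Grin2c (-0.081). With no dye term, the sign turned for Gabrb2 (-0.21). It turned with the background added back for Nfil3 (0.00188). With normexp, the sign turned for Olfr155 (-0.00342). It turned with median over scans for Cp (0.042). With array 397 left out (chosen after seeing the data), the sign turned for Nfil3 (0.00767). With 1 replicate left out, signs turned within the range of Ccdc39 (-0.031 to 0.20), Cp (-0.18 to 0.14), Gzmb (-0.18 to 0.13), Ifi27 (-0.023 to 0.30), Olfr155 (-0.066 to 0.093), Pmvk (-0.26 to 0.16) and Ube2e1 (-1.27 to 0.043). In total RNA alone the sign turned for Sncg (-0.14), Nfil3 (0.087), Olfr155 (-0.00554) and Pmvk (-0.25) of 69 list genes. The medians of 31 of 36 lists turned in at least 1 of 18 settings, replicates left out not counted. List medians moved by more than the replicate spread in 67 values of 23 lists, and by less in 871. The causes were not tested. Dim spots limit the genes measured.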
